A study of Homo sapiens with 5 samples.

Results

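Cytokinesis, the physical division of a cell after mitosis, is described here through 6 genes in MDA-MB-231 cells that held weakly or firmly to their surface. The genes are PRC1, RACGAP1, ECT2, ANLN, CIT and GAS2L3, chosen by symbol from the 25382 genes of the count table, and all 6 were found and had enough reads to be tested among 13297 genes. MDA-MB-231 is an established line of triple-negative human breast cancer, with mesenchymal features, grown in DMEM with serum and antibiotics. Both groups came from that untreated line and were told apart by shear stress alone: 3 weakly adherent libraries, dated 6, 12 and 15 March, and 2 strongly adherent libraries, dated 6 and 15 March. Library titles carry the dates, and whether the samples were separate cultures is not given in the labels, so the tests measure the spread between these libraries, which may be partly technical. Detaching cells by flow defined the groups, so an effect of the detachment and a difference present before it cannot be told apart.

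When chromosomes have separated, PRC1 bundles the antiparallel microtubules of the spindle midzone, and centralspindlin, made of RACGAP1 and the kinesin KIF23, gathers there. Centralspindlin recruits ECT2, an exchange factor that starts furrowing at the cell equator, and anillin (ANLN) ties actin, myosin and septins into the contractile ring. Citron kinase (CIT) stabilises the midbody that remains when the ring has closed, and GAS2L3, which binds both actin and microtubules, sits at the midzone and midbody. Messages of many such genes rise in G2 and mitosis, when the DREAM complex gives way to activators at their promoters. Many of these promoters carry a cell cycle homology region, often written TTTGAA, and CCAAT boxes bound by NF-Y.

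Promoters of the 4 genes whose listed start region holds TTTGAA are shown because that motif is a known promoter element of many genes expressed in G2 and mitosis. Each runs from 250 bases before to 50 bases after a RefSeq start (GRCh38.p14), 5′ to 3′ on the strand of the gene, and capitals mark each match on either strand to a motif that was searched. The motifs were TTTGAA, the variant TTCGAA, the variant TTTAAA, and CCAAT.
PRC1 (chr15:90994486-90994785, minus strand): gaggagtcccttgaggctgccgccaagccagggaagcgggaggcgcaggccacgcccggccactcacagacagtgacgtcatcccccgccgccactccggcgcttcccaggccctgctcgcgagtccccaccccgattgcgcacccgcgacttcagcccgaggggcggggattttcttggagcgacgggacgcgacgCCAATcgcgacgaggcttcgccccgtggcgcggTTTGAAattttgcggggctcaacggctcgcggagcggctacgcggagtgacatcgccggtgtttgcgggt
ANLN (chr7:36389612-36389911, plus strand): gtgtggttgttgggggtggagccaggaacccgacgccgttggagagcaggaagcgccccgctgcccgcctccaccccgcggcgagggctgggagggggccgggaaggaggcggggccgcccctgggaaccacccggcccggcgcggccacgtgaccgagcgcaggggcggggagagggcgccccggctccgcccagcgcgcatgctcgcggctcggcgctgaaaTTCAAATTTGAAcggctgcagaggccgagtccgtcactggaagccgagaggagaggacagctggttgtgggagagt
ECT2 (chr3:172750476-172750775, plus strand): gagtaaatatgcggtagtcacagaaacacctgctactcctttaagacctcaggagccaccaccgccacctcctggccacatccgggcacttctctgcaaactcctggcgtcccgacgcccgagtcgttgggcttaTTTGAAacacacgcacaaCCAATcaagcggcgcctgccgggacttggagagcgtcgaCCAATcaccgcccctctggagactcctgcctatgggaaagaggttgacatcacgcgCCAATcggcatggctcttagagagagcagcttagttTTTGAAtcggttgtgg
CIT (chr12:119877271-119877570, minus strand): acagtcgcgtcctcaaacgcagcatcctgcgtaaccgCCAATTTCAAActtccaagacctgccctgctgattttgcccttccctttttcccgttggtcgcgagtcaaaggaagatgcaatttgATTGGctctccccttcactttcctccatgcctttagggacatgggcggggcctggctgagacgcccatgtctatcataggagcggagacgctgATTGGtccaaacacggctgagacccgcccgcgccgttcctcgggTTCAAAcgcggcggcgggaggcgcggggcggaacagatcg

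TTTGAA was found in 4 of the 5 members with a listed promoter, against 15.2% of 35116 promoters of the same length. In PRC1 it began at position -20 from the start, with CCAAT at -53. In ANLN it also began at -20, directly after a copy on the opposite strand at -26, and in ECT2 it began at -115 and 35 with CCAAT at -97, -58 and -2. CIT held it on the opposite strand at -208 and 11, with CCAAT matches at -213, -127 and -34. CCAAT was found in 3 of the 5 members and in 34.6% of all promoters. A second listed start of ECT2, whose window overlaps the one shown, held TTTGAA at -242, which is the match at 35 in the window shown, and at -182. GAS2L3 held TTTAAA, found in 12.2% of promoters, at -240 and 44, and neither TTTGAA nor TTCGAA. Its listed window (chr12:100593368-100593667) lies inside the gene as GENCODE 29 annotates it, which begins at 100573683. The window of PRC1 also lies inside its gene, which on the minus strand begins at 90995629. These matches are letters in a window and were not tested as binding sites.

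The libraries held 19630386 to 21707459 reads in genes. They carried the marks of the line: VIM, CD44, CAV1 and AXL lay between 729 and 2746 CPM (counts scaled to one library size), CDH1 between 1.18 and 2.07 CPM, ESR1 and PGR had no reads, the leukocyte gene PTPRC stayed at or below 0.255 CPM, and GATA3, a luminal gene, lay at 12.4 to 14.0 CPM. Reads outside genes made up 7.96% and 8.89% of the strongly adherent and 8.97% to 9.84% of the weakly adherent libraries, groups that did not overlap, and the part of this in the results was not tested. In bulk RNA, more cells in late mitosis and more message per cell cannot be told apart.

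All 6 genes had higher mean levels in the weakly adherent cells, and 2 of them, GAS2L3 and CIT, rose, at an adjusted p under 0.05 (edgeR, quasi-likelihood F test, Benjamini-Hochberg). Over all genes tested, 1.77% were called higher and 0.918% lower, and none of the 6 was lower. In 5 of the 6, all but PRC1, every weakly adherent library lay above both strongly adherent ones, as it did in 15.5% of all genes tested. The median log2 fold change of the 6 was 0.38, against -0.00 over all genes tested.

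PRC1, the midzone bundler, had 258 and 222 CPM in the strongly adherent libraries of 6 and 15 March, and 357, 331 and 250 CPM in the weakly adherent ones of 6, 12 and 15 March. The weakly adherent library of 15 March lay between both strongly adherent ones, so the groups overlapped. Its means were 240 ± 25.1 CPM (SD, n = 2) and 313 ± 55.5 CPM (SD, n = 3). On the log2 scale the difference was 0.38 (95% interval 0.03 to 0.74, SE 0.15), with an edgeR adjusted p = 0.31.

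RACGAP1, the GTPase-activating subunit of centralspindlin, had 206 and 191 CPM in the strongly adherent libraries of 6 and 15 March and 283, 279 and 211 CPM in the weakly adherent ones of 6, 12 and 15 March. The groups did not overlap, but the lowest weakly adherent library exceeded the highest strongly adherent one by only 2.21%. RACGAP1 differed by 0.37 on the log2 scale (SE 0.13, 95% interval 0.09 to 0.66, edgeR adjusted p = 0.20).

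ECT2, the exchange factor, had 182 and 193 CPM in the strongly adherent libraries and 212, 276 and 203 CPM in the weakly adherent ones, in the same order of dates. Only the library of 12 March stood well above the others. At 0.29 (SE 0.13) its log2 fold change was the smallest of the 6 (edgeR adjusted p = 0.35). It was 0.14 (adjusted p = 0.64) when the library of 12 March was left out.

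ANLN, the ring scaffold and the most abundant of the 6 per length, had 559 and 539 CPM in the strongly adherent libraries of 6 and 15 March. On 6, 12 and 15 March the weakly adherent ones had 756, 781 and 595 CPM. The groups did not overlap, and the library of 15 March again lay closest to the strongly adherent cells, 6.39% above the higher of them. The log2 fold change was 0.37 (SE 0.11, 95% interval 0.13 to 0.62, edgeR adjusted p = 0.13).

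Leaving out the weakly adherent library of 15 March changed the calls on ANLN, RACGAP1 and PRC1. Their log2 fold changes became 0.49, 0.51 and 0.53, at edgeR adjusted p = 0.0071, 0.0078 and 0.014, so that 5 of the 6 genes were called higher, against 1.79% of all genes in that fit. ECT2 was not called without any library in turn.

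CIT, the citron kinase, rose from 88.1 and 82.6 CPM in the strongly adherent libraries of 6 and 15 March to 153, 150 and 121 CPM in the weakly adherent ones of 6, 12 and 15 March. The lowest weakly adherent library exceeded the highest strongly adherent one by 36.9%. Means of 85.4 ± 3.91 CPM (SD, n = 2) and 141 ± 17.7 CPM (SD, n = 3) made a 1.65-fold rise (log2 fold change 0.72, SE 0.10, 95% interval 0.50 to 0.95, edgeR adjusted p = 0.0030). CIT has the longest coding sequence of the 6, 6207 bases. With the trend of each library with coding length removed, its log2 fold change was 0.52 (adjusted p = 0.026), or 0.45 (adjusted p = 8.8e-08) with the date as a block as well. Counts per gene do not separate the kinase form from the shorter form without the kinase domain.

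GAS2L3, the actin and microtubule binder, showed the largest change of the 6, from 317 and 299 reads in the strongly adherent libraries to 777, 740 and 607 in the weakly adherent ones. Scaled by library these were 14.9 and 13.6 CPM on 6 and 15 March against 36.9, 37.8 and 27.6 CPM on 6, 12 and 15 March. Every weakly adherent library thus lay at least 84.9% above every strongly adherent one. A log2 fold change of 1.26 (95% interval 0.94 to 1.57, SE 0.14, edgeR adjusted p = 9.0e-04) ranked it 40th highest of all genes tested. Its coding sequence has 2082 bases, close to those of RACGAP1 (1896) and PRC1 (1860), and with the coding length trend removed the value was again 1.26 (adjusted p = 4.2e-04). Its relative GAS2L1 had 119 to 128 CPM in all libraries and a log2 fold change of 0.02 (SE 0.07, adjusted p = 0.95), while GAS2 and GAS2L2 had too few reads to be tested.

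**Figure D1:**
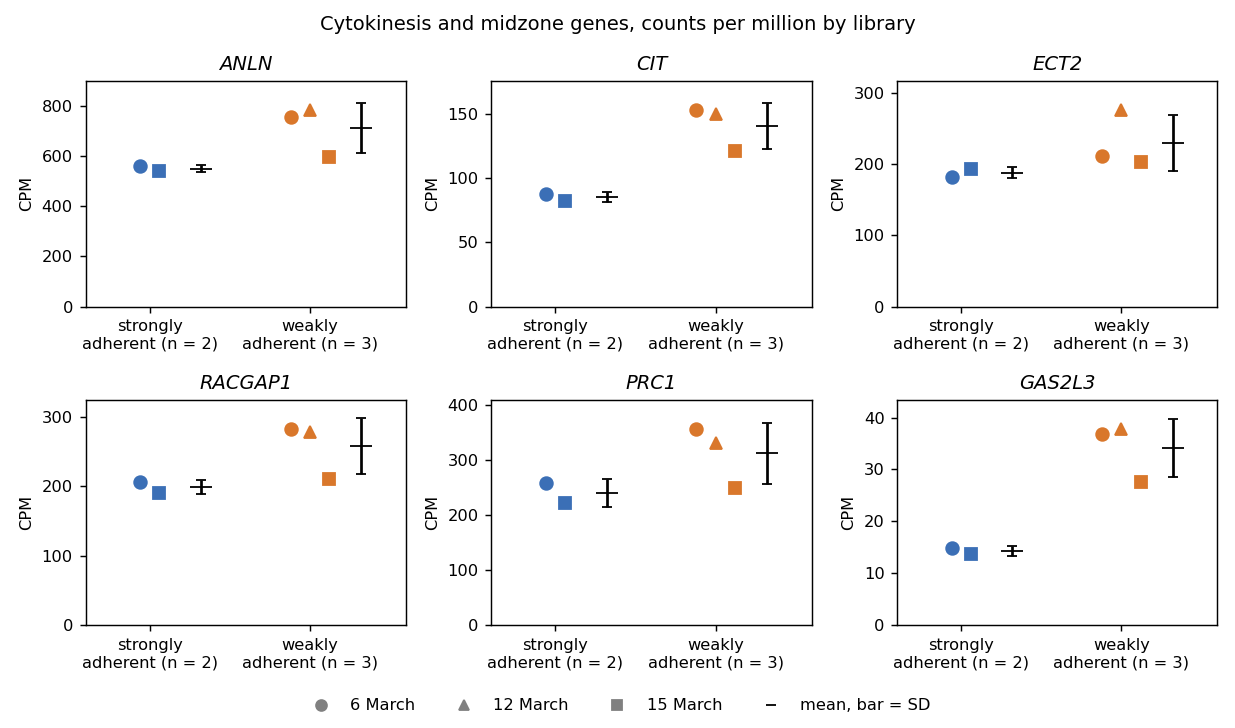
CPM (y axis, from 0) of the 6 genes in the 2 strongly adherent (blue) and 3 weakly adherent (orange) libraries, with symbols for the dates and black bars for the mean and SD of each group. The weakly adherent library of 15 March (orange square) is the lowest of its group in every panel, and in GAS2L3 and CIT it is still far above the blue points.

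Within each shared date, every one of the 6 genes was higher in the weakly adherent library, and the ratio was larger on 6 March than on 15 March in all 6. On 6 March GAS2L3 was 2.47-fold higher (95% counting interval 2.17 to 2.83) and on 15 March 2.03-fold (1.76 to 2.34). CIT was 1.73-fold and 1.46-fold higher on the same dates. These intervals are exact Clopper-Pearson limits on the reads of 2 libraries. They cover counting error only and compare those libraries, not the conditions.

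On 6 March PRC1 was 1.39-fold higher (counting interval 1.34 to 1.44), RACGAP1 1.37-fold (1.32 to 1.43), ANLN 1.35-fold (1.32 to 1.38) and ECT2 1.16-fold (1.11 to 1.21). On 15 March the same genes were 1.13-fold, 1.10-fold, 1.10-fold and 1.05-fold higher, and the lower counting limit for ECT2 was 1.01. The log2 ratio of 6 March exceeded that of 15 March by 0.15 for ECT2 and by 0.25 to 0.32 for the other 5. The mean level reached 5 CPM in 10476 genes, over which the median log2 ratio was -0.01 on 6 March and 0.00 on 15 March. One library a group and date leaves no test of the difference between dates.

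The strongly adherent libraries of both dates lay close together, from -0.08 (ECT2) to 0.21 (PRC1) on the log2 scale for 6 minus 15 March. Between the weakly adherent libraries the same difference was larger in 5 genes, 0.34 to 0.51, but not in ECT2, where it was 0.07. The weakly adherent library of 12 March, which has no strongly adherent partner, lay 0.47 (PRC1) to 1.41 (GAS2L3) above the mean of the strongly adherent libraries on the log2 scale.

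With the date as a block, edgeR called 5 of the 6 higher, against 6.20% of all genes higher and 5.28% lower in that fit, which leaves 1 residual degree of freedom and gives the library of 12 March no weight. The log2 fold changes were then 1.17 for GAS2L3, 0.67 for CIT, 0.32 for PRC1 (adjusted p = 2.3e-05), 0.30 for RACGAP1 (1.3e-04) and 0.29 for ANLN (2.0e-04). ECT2 was not called, at 0.14 (adjusted p = 0.16). In edgeR's block fits the adjusted p rest mainly on a spread shared over genes, since 1 residual degree of freedom says little about each. They say little about the spread between dates. On 6 and 15 March the log2 ratios were 0.47 and 0.17 for PRC1, 0.46 and 0.14 for RACGAP1, and 0.43 and 0.14 for ANLN.

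**Figure D2:**
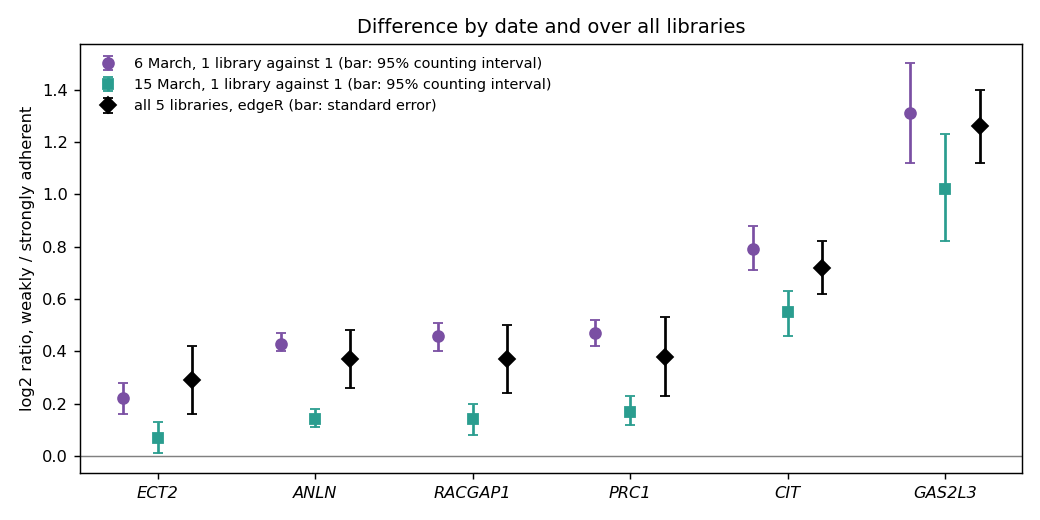
Log2 ratio of weakly to strongly adherent cells (y axis) for each gene on 6 March (circles) and 15 March (squares), with 95% counting intervals, and the edgeR log2 fold change over all 5 libraries (diamonds) with its standard error. All points lie above 0, the ratio of 6 March lies above that of 15 March in each gene, and GAS2L3 and CIT lie above the other 4.

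PRC1, RACGAP1 and ANLN kept nearly fixed proportions: the log2 ratio of RACGAP1 to ANLN differed by 0.00 between the groups (SD 0.04 in each group) and that of RACGAP1 to PRC1 by -0.01 (SD 0.05, n = 3, and 0.08, n = 2). The log2 ratio of ANLN to PRC1 also differed by -0.01, with a wider SD of 0.09 (n = 3) and 0.11 (n = 2). GAS2L3 stood apart from PRC1, RACGAP1 and ANLN. Its log2 ratio to RACGAP1 was 0.88 higher in the weakly adherent cells, with an SD of 0.03 (n = 3) and 0.02 (n = 2) among libraries, and its ratio to CIT was 0.53 higher, with an SD of 0.07 and 0.03. The ratios of CIT to the other 4 were higher by 0.35 to 0.44. In none of these ratios with GAS2L3 or CIT did the groups overlap. The share of gene pairs whose ratios separate in this way was not computed. A two-sided exact permutation test of 3 against 2 libraries cannot go below p = 0.2, so no p-value is given.

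ECT2 had a profile of its own. Its log2 ratio to RACGAP1 varied by an SD of 0.22 among the weakly adherent libraries, since it was near its overall mean on 6 March (0.01) and well above it on 12 March (0.39), while RACGAP1 was at 0.29 and 0.27. The ratios of ECT2 to ANLN, RACGAP1 and PRC1 overlapped between the groups.

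A list of 24 other mitotic genes, such as cyclins B1 and B2, served as a reference for mitotic messages in each library. All 24 lay above 0 on the log2 scale, from 0.18 to 1.37, at a median of 0.57. Of the 24, 4 were called higher and 0 lower, against 1.77% and 0.918% of all genes tested. With the date as a block 23 were called higher, against 6.20% of all genes. Their median, on the log2 scale against the mean of the libraries, was -0.22 and -0.40 in the strongly adherent libraries of 6 and 15 March and 0.37, 0.38 and -0.08 in the weakly adherent ones of 6, 12 and 15 March. The weakly adherent library of 15 March was thus the lowest of its group here too. Against this median GAS2L3 was 0.71 higher in the weakly adherent cells and CIT 0.18 higher. ANLN, RACGAP1 and PRC1 differed by -0.18, -0.17 and -0.17. The groups did not overlap in these 5 genes, though in ANLN the nearest values were 0.03 (strongly adherent) and -0.03 (weakly adherent). The share of all genes without such overlap was not computed on this scale. ECT2 differed by -0.26 and the groups overlapped. GAS2L3 minus the mitotic median was -0.45 and -0.41 in the strongly adherent and 0.26, 0.28 and 0.28 in the weakly adherent libraries. Such an excess was not particular to GAS2L3 and CIT. Within the list CENPE and CENPF had log2 fold changes of 1.37 and 1.21, against 1.26 for GAS2L3. With the coding length trend removed they had 1.05 and 0.82, and GAS2L3 again 1.26. MKI67, also listed, had 0.96, against 0.72 for CIT, both with that trend kept.

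**Figure D3:**
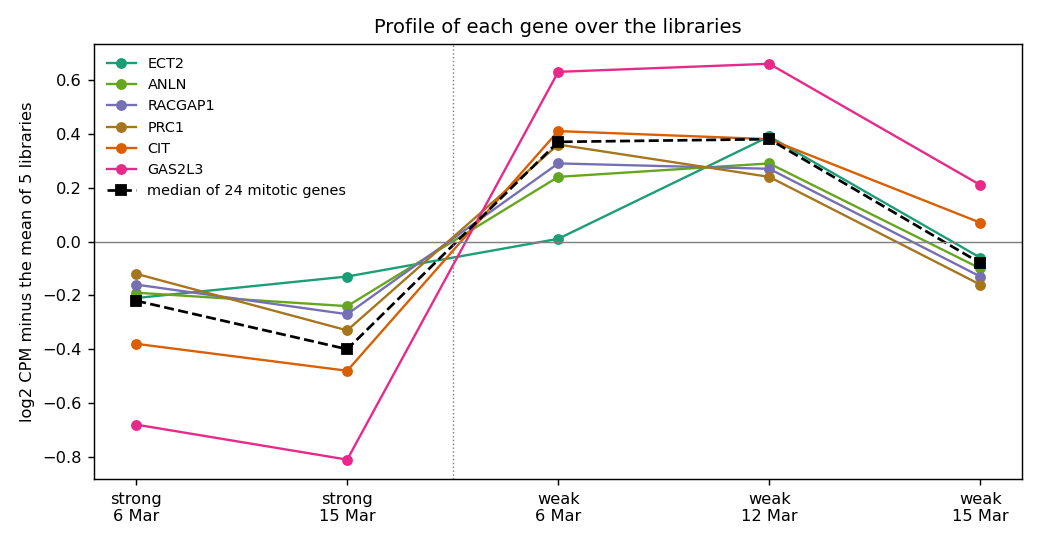
Log2 CPM of each gene minus its mean over the 5 libraries (y axis) in the 2 strongly adherent libraries, left of the dotted line, and the 3 weakly adherent libraries, right of it; the dashed line is the median of 24 mitotic genes, and lines only join values of 1 gene. ANLN, RACGAP1 and PRC1 run close to the mitotic median, GAS2L3 spans the widest range, from -0.81 to 0.66, and ECT2 peaks on 12 March.

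Genes with the most similar profiles were sought among 10470 others that averaged 5 CPM or more, by the root mean square difference of centred log2 CPM over the 5 libraries. GAS2L3 was nearest to CENPF (0.0473), which had a log2 fold change of 1.21, then to EXPH5 (0.0774) and CENPE (0.0846). The nearest to CIT were LOC100288637 (0.050), HJURP (0.0581), which loads the centromeric histone, and cyclin B2, CCNB2 (0.0595). ANLN was nearest to CENPL (0.0285), CEP55 (0.0406) and HMGB2 (0.0419), and its distance to RACGAP1 was 0.0324. RACGAP1 was nearest to the condensin subunit NCAPD2 (0.030), SAPCD2 (0.0402) and BIRC5 (0.0419). PRC1 was nearest to FAM72B (0.0146), one of several near-identical copies whose reads are uncertain, then to NCAPD2 (0.0304) and SAPCD2 (0.0308). ECT2 was nearest to LINC00673 (0.0252), IFT80 (0.0345) and the centromere protein CENPC (0.0351).

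Most calls among the other cytokinesis genes fell on midzone kinesins. Of 50 listed genes 43 were tested, 4 were called higher and 0 lower, and their median log2 fold change was 0.02. The shares over all genes tested were 1.77% higher and 0.918% lower. Of these 4 called genes 1 belongs to a list whose own results are not given here, and the other 3 are midzone kinesins. Among the midzone kinesins 3 of 5 were called higher, all 5 lay above 0 on the log2 scale, and the median was 0.70. KIF14, which brings citron kinase to the midbody, had 64.7 and 60.0 CPM in the strongly adherent libraries of 6 and 15 March and 141, 152 and 100 CPM in the weakly adherent ones of 6, 12 and 15 March (log2 fold change 1.07, SE 0.17, adjusted p = 0.024 in edgeR). KIF20A, which carries the chromosomal passenger complex to the midzone, had 145 and 128 CPM against 326, 305 and 204 CPM on the same dates, which is 1.03 on the log2 scale (SE 0.19, adjusted p = 0.044 in edgeR). KIF20B, a kinesin of late cytokinesis, rose 1.62-fold (edgeR adjusted p = 0.017). KIF23, the partner of RACGAP1, had a log2 fold change of 0.41 (SE 0.16, adjusted p = 0.31), close to 0.37 for RACGAP1 itself, and the midzone kinesin KIF4A one of 0.47 (SE 0.16, adjusted p = 0.24). With the date as a block all 5 were called higher, against 6.20% of all genes tested.

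The chromosomal passenger complex and PLK1, which license the midzone, gave 0 calls among 5 genes in edgeR. With the date as a block 4 were called higher, against 6.20% of all genes tested. PLK1 had a log2 fold change of 0.81 (SE 0.19) and CDCA8, the borealin subunit, one of 0.76 (SE 0.18), both at edgeR adjusted p = 0.087. When the weakly adherent library of 15 March was left out, both were called, at 0.99 (adjusted p = 0.0016) and 0.93 (5.3e-04). Neither was called without that of 6 March (edgeR adjusted p = 0.065 and 0.074) or that of 12 March (0.24 and 0.22). AURKB, the kinase of the complex, had the smallest value, 0.19 (SE 0.13).

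The 5 listed septins were not matched by name, because symbols of that kind are spelled as dates in the table.

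Abscission genes gave 0 calls in 20, with a median log2 fold change of -0.02 and 9 positive values. With the date as a block 2 of them were called higher, CEP55 (0.27, adjusted p = 0.0012) and ZFYVE26 (0.31, adjusted p = 0.0020). Of all genes tested 6.20% were called higher in that fit. CEP55, which recruits the ESCRT machinery to the midbody, averaged 163 ± 5.67 CPM (SD, n = 2) in the strongly and 208 ± 29.1 CPM (SD, n = 3) in the weakly adherent cells, or 0.35 on the log2 scale (SE 0.11, adjusted p = 0.15 in edgeR), and 0.47 (adjusted p = 0.011) when the weakly adherent library of 15 March was left out. CEP55 was not called without the weakly adherent library of 6 March (edgeR adjusted p = 0.23) or that of 12 March (0.35). The midbody protein ZFYVE26 had a log2 fold change of 0.28 (SE 0.09, adjusted p = 0.13), which turned to -0.02 (adjusted p = 0.99) with the coding length trend removed. The ESCRT subunit CHMP4B and the ATPase VPS4A had log2 fold changes of -0.09 (SE 0.07) and -0.06 (SE 0.07).

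The kinesins kept their size of difference when libraries were left out, while some lost their call. Of 16 alternatives, KIF20A kept its call in 10, KIF14 in 12 and KIF20B in 15. With the coding length trend removed KIF20A (edgeR adjusted p = 0.11) and KIF14 (0.071) were not called. Neither was called without a filter on low counts (0.29 and 0.13), nor KIF20A with DESeq2's size factors in edgeR (0.060). When the strongly adherent library of 6 March was left out, the log2 fold changes were 1.12 for KIF20A (edgeR adjusted p = 0.33), 1.12 for KIF14 (0.18) and 0.63 for KIF20B (0.14), and calls over all genes fell from 357 to 116. When that of 15 March was left out they were 0.95 for KIF20A (0.37) and 1.02 for KIF14 (0.19), with 214 calls over all genes. With the weakly adherent library of 12 March left out KIF20A was at 0.96 (0.14), with 194 calls over all genes. GAS2L3 and CIT were called whichever library was left out, at adjusted p of at most 0.011 and 0.031.

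**Figure D4:**
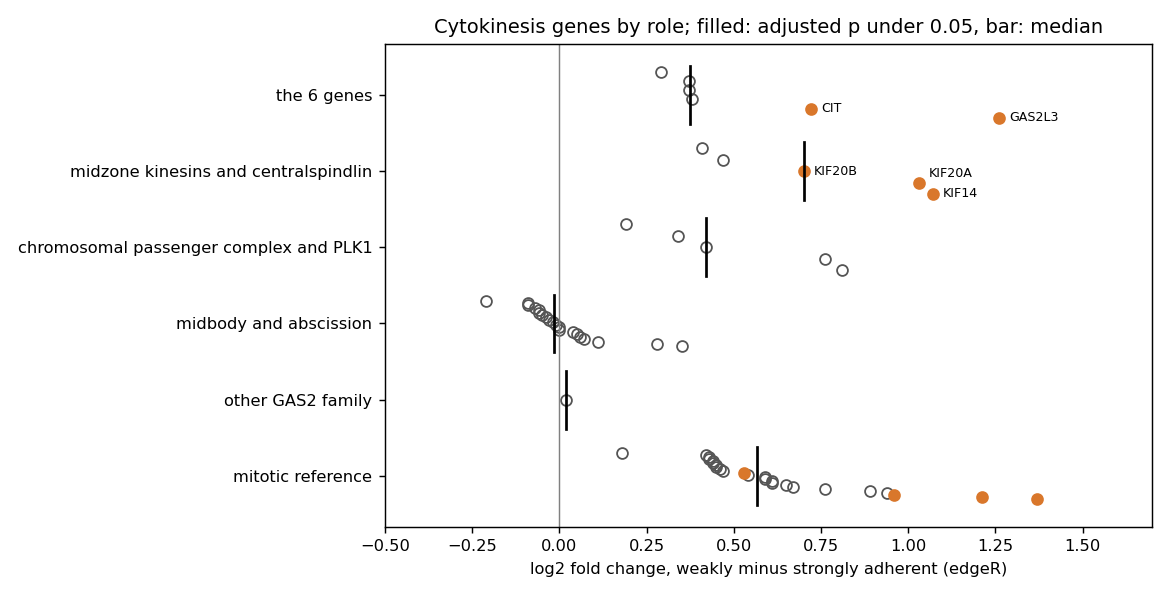
Log2 fold changes, weakly minus strongly adherent (x axis, edgeR), of the 6 genes, the cytokinesis genes by role and 24 mitotic genes; filled points passed an adjusted p under 0.05 and black bars are medians. Midzone kinesins and the mitotic list lie to the right of 0 (medians 0.70 and 0.57), and the abscission genes centre near 0 (-0.02).

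Levels between genes can be compared only per length, here CPM per kilobase of the longest GENCODE 29 transcript, and which transcript the cells express is not known. On that scale ANLN led in the weakly adherent cells with 149 ± 21.1 (SD, n = 3), followed by RACGAP1 with 79.8 ± 12.6, PRC1 with 76.5 ± 13.6, ECT2 with 52.2 ± 9.04, CIT with 16.2 ± 2.04 and GAS2L3 with 8.64 ± 1.43. RACGAP1 and PRC1 did not differ beyond their spread. The order was the same in the strongly adherent cells, from 115 ± 2.96 (SD, n = 2) for ANLN to 9.80 ± 0.449 for CIT and 3.61 ± 0.238 for GAS2L3.

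The genes lie apart in the genome, with 3 on chromosome 12: GAS2L3 (chr12:100573683-100628286), CIT (chr12:119685790-119877291) and RACGAP1 (chr12:49976923-50033136), in GRCh38 of GENCODE 29. The rows looked up for genes that resemble or overlap ANLN, PRC1 and RACGAP1 held few reads. The pseudogene RACGAP1P had 2 to 5 reads a library, and the antisense gene PRC1-AS1, which shares 406 exon bases with PRC1, had 4 to 20. KIAA0895, on the opposite strand with 78 bases shared with ANLN, had 160 to 205 reads, and AQP6, which shares 137 with RACGAP1, had 0 to 3. The strand setting of the counting is not known, so reads of overlapping genes cannot be told apart. GENCODE also annotates a protein-coding gene, AC068831.7, that shares 3181 exon bases with PRC1, and whether the authors' annotation held it is not given in the sources used here. A pseudogene on the same strand, AC010200.1, shares 57 exon bases with GAS2L3. With CIT the antisense gene AC002563.1 shares 81 and the microRNA gene MIR1178 shares 91. Reads of these overlapping genes of GAS2L3 and CIT were not looked up.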

How the data were processed

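Total RNA of 5 samples was made into stranded TruSeq libraries and sequenced as 50 bp single-end reads, per the labels' protocols. Per the submitters' processing notes, cutadapt, FastQC, STAR, HTSeq and DESeq2 were used with the build hg19; the sources used here give no versions, annotation or strand setting. The authors deposited raw counts per gene symbol, and log2 values that equal log2(count / size factor + 1), as tested on the file. HTSeq's 5 rows of unassigned reads stayed out of library sizes: reads outside genes and ambiguous reads were 7.96% to 9.84% and 1.34% to 1.43% of uniquely aligned reads.

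The deposited counts of 13297 genes were tested with the robust quasi-likelihood F test of edgeR 4.0.16 (R 4.3.3) after filterByExpr and TMM scaling, with Benjamini-Hochberg adjustment over all genes tested and a threshold of 0.05, weakly minus strongly adherent, in all 5 libraries with no covariate. A standard error is the log2 fold change over the square root of F. CPM uses TMM-scaled library sizes, with a prior count of 0.5 on the log2 scale. The fit had 3 residual degrees of freedom and a biological coefficient of variation of 7.91%. Alternatives were size factors in place of TMM, DESeq2 1.42.0 (Wald test), limma 3.58.1 (voom), other filters, limma on the authors' log2 values, each library left out, the date as a block, and removal of each library's trend with coding length (GENCODE 29, a natural spline with 5 degrees of freedom, for the 88.5% of tested genes that had one). Tests on simulated data covered the main fit, size factors, DESeq2, voom, limma on log2 values, both date blocks and the length trend. The simulated counts held no difference between dates, so they cannot show how the block fits behave where dates differ. The other filters, the fits with a library left out, and the length trend combined with the block were not covered.

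Same-date libraries were paired on the date in their titles. Deviations from the group mean had a correlation of 0.32 (6 March) and 0.19 (15 March), which are not independent, since 2 strongly adherent libraries deviate by opposite amounts. The weakly adherent library of 12 March, which has no partner, had 0.15 with the strongly adherent one of 15 March. The matched pair of 15 March thus stood out little from an unmatched one. Replicates differed by more than sampling noise in every pair (7.54 to 12.6 for chi-square over its degrees of freedom).

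The 6 genes and the lists were chosen with earlier results of these data known. The results of 1 list are not reported here. Named beside them are, per list, the called genes or else up to 2 with the smallest p, and the 3 nearest profiles per gene; KIF23, KIF4A, AURKB, CHMP4B and VPS4A were chosen after their values were seen. RefSeq promoter sequences matched 5 of the 6 genes by symbol. Figures were drawn with matplotlib 3.10.9.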

Additional observations from a re-analysis of the deposited data

How the results depend on the processing

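GAS2L3 and CIT stayed called in the same direction in all 16 alternatives, at log2 fold changes of 1.17 to 1.40 and 0.45 to 0.83, and ECT2 stayed uncalled in all 16, at 0.14 to 0.38. The count of the 6 genes called higher went from 2 to 5 with the date as a replicate block in edgeR, as a random block in limma-voom and as a block with the coding length trend removed, and ran from 2 to 5 with 1 library left out. In those 3 paired fits the log2 fold changes were 0.29, 0.33 and 0.26 for ANLN, 0.30, 0.33 and 0.30 for RACGAP1 and 0.32, 0.35 and 0.32 for PRC1. DESeq2's Wald test also called ANLN (0.37, adjusted p = 0.035). With 1 library left out they ran from 0.30 to 0.49, 0.30 to 0.51 and 0.28 to 0.53.

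Of the other cytokinesis genes, 4 were called higher and 0 lower. DESeq2's Wald test called 7 and 1, no filter on low counts 2 and 1, DESeq2's size factors 1 lower, the 2 date blocks 13 and 1 each, the coding length trend removed 1 higher, and that with the block 12 and 1. With 1 library left out the counts were 0 to 11 higher and 0 to 1 lower. Calls over all genes tested were 357, against 536 without a filter, 1527 and 1213 with the date blocks, 1169 with the block and the length trend removed, and 116 to 341 with 1 library left out. Where a strongly adherent library was left out, the lone one was assumed to vary like the other group. ZFYVE26 reversed to -0.02 with the length trend removed, and GAS2L1 ranged from -0.02 to 0.07 with 1 library left out. The cause of these changes was not tested. All within-date ratios kept their direction under DESeq2's size factors and the authors' log2 values. In edgeR 1889 genes had an unadjusted p under 0.05.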
